A study of Mus musculus with 2 samples.

Results

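Interferon-stimulated tumour cells were the tumour barcodes with the most transcripts of 5 interferon-induced genes in mouse colon tumours profiled by single-cell RNA sequencing. A tumour barcode had under 20% mitochondrial counts, at least 3000 UMIs (unique molecular identifiers, each counting 1 captured transcript), at least 2 UMIs of Hmga2, no UMI of the pan-leukocyte gene Ptprc, under 2500 CPM (counts of a gene scaled to the barcode's total) of Dcn and under 1000 CPM of Col1a1 (decorin and collagen, which are fibroblast genes). Of the 26063 barcodes in the tables, 11309 met this rule, 4171 in the SLC7A11-Ab library and 7138 in the control library. The interferon-stimulated cells were the top 10% of these, both libraries ranked together, by the summed CPM of Ifit1, Ifit3, Isg15, Rsad2 and Usp18. There were 1131 of them, and the remaining 10178 barcodes are called the other tumour cells. The tumours came from CT26, an established mouse colon carcinoma line of mesenchymal appearance, implanted into mice. Mice of the SLC7A11-Ab group were given an anti-SLC7A11 antibody at 10 mg/kg every 2 days (SLC7A11 is the transport subunit of a membrane exchanger that takes up cystine and releases glutamate), and mice of the control group received an IgG antibody at the same dose and interval, both starting at tumours of 50 to 100 mm3. The site is uncertain, since both a caecal injection and subcutaneous tumours are mentioned, and the design text does not say how many mice went into a library. Each group had 1 library, so no difference here has a replicate check, no p-value is given, and all intervals (95%) cover counting error only.

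Interferons are secreted proteins that warn tissues of infection or damaged DNA. Type I interferons (the alpha family and interferon beta) bind the IFNAR1 and IFNAR2 receptor pair and act through the kinases JAK1 and TYK2, which lead to a complex holding STAT2 and IRF9 on a DNA element called the ISRE. Interferon gamma, made mostly by T and NK cells, binds IFNGR1 and IFNGR2 and acts through JAK1 and JAK2 on a different element, the GAS. Both programs share many targets, but the IFIT, MX and OAS families answer mainly to type I interferon, while guanylate-binding proteins, Cxcl9, Cd274 and MHC class II genes answer strongly to interferon gamma.

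The promoters of the genes that define these cells are shown to place the ISRE word relative to the transcription start. The windows run from 250 bases before to 50 bases after the RefSeq start in build GRCm38.p6, are written 5′ to 3′ on the gene's strand, and carry in capitals each match to GAAANNGAAA on either strand. They are Ifit1 (chr19:34640639-34640938, plus strand), Ifit3 (chr19:34583279-34583578, plus strand), Isg15 (chr4:156200769-156201068, minus strand), Rsad2 (chr12:26456403-26456702, minus strand) and, for contrast, the interferon gamma responsive Gbp2 (chr3:142620413-142620712, plus strand).
Ifit1: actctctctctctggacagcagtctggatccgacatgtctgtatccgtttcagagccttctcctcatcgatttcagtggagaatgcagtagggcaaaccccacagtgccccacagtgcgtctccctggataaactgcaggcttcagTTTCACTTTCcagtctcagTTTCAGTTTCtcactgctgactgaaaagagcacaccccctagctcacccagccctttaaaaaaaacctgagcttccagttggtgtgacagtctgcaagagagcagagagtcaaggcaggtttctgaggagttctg
Ifit3: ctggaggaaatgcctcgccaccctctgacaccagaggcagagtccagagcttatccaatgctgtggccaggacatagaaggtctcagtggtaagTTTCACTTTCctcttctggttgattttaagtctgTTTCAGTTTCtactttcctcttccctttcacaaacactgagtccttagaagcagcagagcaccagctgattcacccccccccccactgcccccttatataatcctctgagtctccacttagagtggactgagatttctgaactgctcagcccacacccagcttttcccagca
Isg15: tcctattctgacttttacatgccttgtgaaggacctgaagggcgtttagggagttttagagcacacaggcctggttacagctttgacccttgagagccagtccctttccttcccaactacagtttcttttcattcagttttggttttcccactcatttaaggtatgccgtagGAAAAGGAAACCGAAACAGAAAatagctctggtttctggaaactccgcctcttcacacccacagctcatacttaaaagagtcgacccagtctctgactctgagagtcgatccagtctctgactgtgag
Rsad2: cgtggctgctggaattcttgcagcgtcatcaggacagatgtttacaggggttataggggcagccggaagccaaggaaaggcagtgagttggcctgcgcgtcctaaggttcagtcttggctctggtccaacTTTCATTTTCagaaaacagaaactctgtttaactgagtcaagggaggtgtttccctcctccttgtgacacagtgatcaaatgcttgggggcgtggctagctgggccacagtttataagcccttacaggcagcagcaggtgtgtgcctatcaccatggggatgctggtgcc
Gbp2: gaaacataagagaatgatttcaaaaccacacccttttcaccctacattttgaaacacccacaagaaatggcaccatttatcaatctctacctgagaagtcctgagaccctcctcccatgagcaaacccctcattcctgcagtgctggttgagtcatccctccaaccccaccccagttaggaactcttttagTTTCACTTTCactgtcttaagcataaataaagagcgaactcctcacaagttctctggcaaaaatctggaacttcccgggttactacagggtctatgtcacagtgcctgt
Ifit1 and Ifit3 each held 2 separate copies, Isg15 held 3 overlapping copies within bases -78 to -57 from its start, and Rsad2 held 1, at -120 to -111. In Gbp2 the word lay at -59 to -50. None of the 5 windows held the GAS word TTCNNNGAA, so no matches of the 2 words overlapped. Of all 27025 promoter windows of this length, 3.49% held the word. Among genes found in that table it was present in 4 of 4 genes of the rule (Usp18 had no entry), 18 of 44 other interferon-stimulated genes and 12 of 18 interferon gamma class genes. It was present in 0 of 22 promoters of G2 and mitosis genes. The GAS word, searched on both strands, was in 8.47% of all windows, in 0 of 4 genes of the rule and in 9 of 18 interferon gamma class genes. A match is a run of letters and not a measured binding site.

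The SLC7A11-Ab library held 12153 barcodes with 143658800 UMIs and the control library 13910 barcodes with 129044329 UMIs. Depth differed between the libraries and not between the 2 kinds of cell within a library. The interferon-stimulated cells had a median of 17128 UMIs in SLC7A11-Ab and 11106 in control, and the other tumour cells had medians of 17480.5 and 11425.5. Their mitochondrial shares were alike, with medians of 1.07% in the interferon-stimulated cells of each library and 1.11% and 1.14% in the other tumour cells of SLC7A11-Ab and control. The labels call both samples goblet cells, but the 7 goblet markers summed to 1.55 CPM in the interferon-stimulated cells of SLC7A11-Ab and 1.62 CPM in those of control. Vim, a mesenchymal filament gene, stood at 5251 CPM in SLC7A11-Ab and 3533 CPM in control interferon-stimulated cells, while Epcam, an epithelial adhesion gene, had 1 UMI and 0 UMIs there. The libraries had 39 barcode sequences in common, 8 of them among tumour barcodes and 0 among the interferon-stimulated cells.

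Interferon-stimulated cells made up a larger part of the tumour cells in the SLC7A11-Ab library. They were 611 of 4171 tumour barcodes there (14.6%, exact interval 13.6 to 15.8) and 520 of 7138 in control (7.28%, interval 6.69 to 7.91), a 2.01-fold difference (log2 ratio 1.01, interval 0.84 to 1.18). SLC7A11-Ab thus supplied 54.0% of the interferon-stimulated cells and 36.9% of the tumour barcodes. The share follows from where a pooled threshold falls, so it describes these 2 libraries, and it depended on that choice: the log2 ratio was 0.63 for the top 5% and 1.49 for the top 20%.

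The libraries differed most at the low end of the score and not at its top. A score of 0 was found in 7.12% of SLC7A11-Ab tumour barcodes (interval 6.36 to 7.94) and 39.5% of control ones (interval 38.4 to 40.7), at the unequal depths given above. The median over all tumour barcodes was 378 CPM in SLC7A11-Ab and 79.8 CPM in control. Among the interferon-stimulated cells alone the order was the other way round, with medians of 2157 CPM in SLC7A11-Ab and 2715 CPM in control. Their 90th percentiles were 4674 CPM in SLC7A11-Ab and 6044 CPM in control, and the highest barcodes reached 12146 and 13551 CPM. No gap separated the groups: the lowest scores inside the threshold were 1341.6, 1341.96 and 1344.36 CPM, and the highest outside were 1341.12, 1340.72 and 1338.69 CPM. Within 20% of the threshold lay 134 SLC7A11-Ab and 78 control barcodes on the inside, and 201 and 102 on the outside, so these cells are the upper range of a continuous score.

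**Figure D1:**
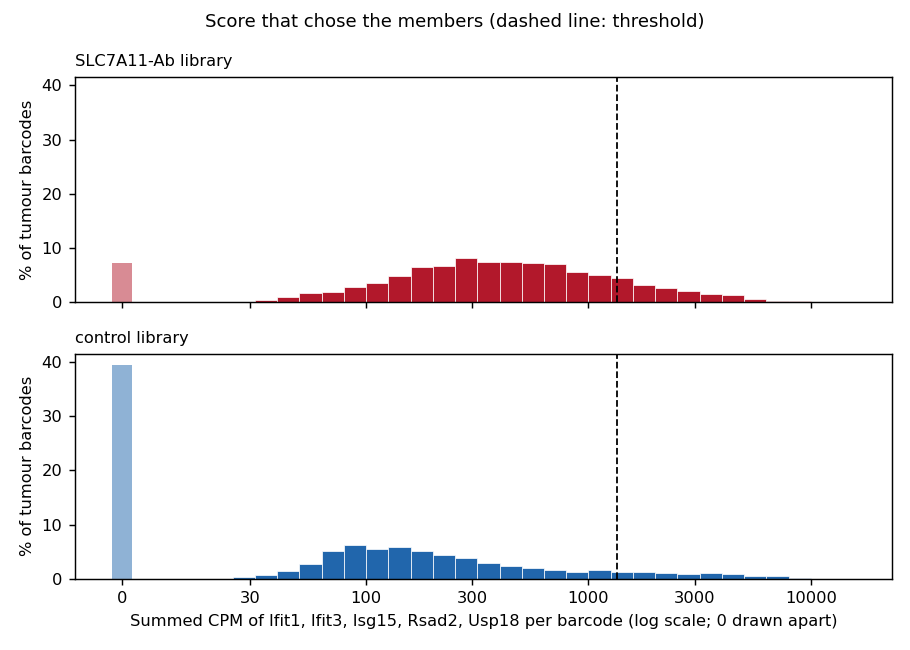
Share of tumour barcodes (vertical axis, percent) by the summed CPM of the 5 genes (horizontal axis, log scale, a score of 0 drawn apart), SLC7A11-Ab above and control below, with the threshold dashed. The SLC7A11-Ab barcodes form 1 broad hump with 7.12% at 0, while 39.5% of control barcodes sit at 0 and a thin tail passes the threshold.

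The 5 genes of the rule were used to choose the cells, and their values are given as a description. Levels of a kind of cell are CPM of its summed UMIs. Most interferon-stimulated cells carried several of them. All 5 were seen in 46.0% of those in SLC7A11-Ab and 34.4% of those in control, against 3.34% and 0.438% of the other tumour cells, and a single gene carried the score in 6 and 5 interferon-stimulated barcodes. With every barcode thinned to 3000 UMIs, the mean number seen was 2.67 in SLC7A11-Ab and 2.94 in control interferon-stimulated cells, against 0.796 and 0.326 in other tumour cells.

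Isg15, a ubiquitin-like protein attached to other proteins or secreted, stood at 1565 CPM in SLC7A11-Ab and 1878 CPM in control interferon-stimulated cells, and at 304 and 116 CPM in the other tumour cells of those libraries. Ifit3, which binds viral RNA together with its relatives, stood at 374 and 444 CPM, against 34.6 and 8.76 CPM. Usp18, which removes ISG15 from proteins and damps the type I receptor, stood at 256 and 405 CPM, against 50.1 and 20.5 CPM. Each of these, as chosen by the rule, was lower in SLC7A11-Ab than in control within the interferon-stimulated cells (log2 ratios -0.26, -0.25 and -0.66), and higher in SLC7A11-Ab among the others. Rsad2 (viperin, an enzyme that makes a chain-terminating nucleotide) was the exception, at 189 CPM in SLC7A11-Ab and 141 CPM in control interferon-stimulated cells, against 10.8 and 3.04 CPM in the others. In single barcodes Rsad2 was uneven, with medians of 51.1 CPM and 0 CPM and 90th percentiles of 557 and 442 CPM in the interferon-stimulated cells of SLC7A11-Ab and control.

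Oasl1, an OAS-family protein that restrains translation of Irf7, was listed as a marker of these cells but was no part of the rule. It stood at 160 CPM in SLC7A11-Ab and 248 CPM in control interferon-stimulated cells, and at 28.5 and 19.6 CPM in the other tumour cells. The log2 ratio of interferon-stimulated to other cells was 2.49 (interval 2.40 to 2.58) in SLC7A11-Ab and 3.66 (interval 3.57 to 3.76) in control. It was thus high in the chosen cells of both libraries, although any gene measured in the same barcodes as the rule is tied to it and none of these ratios is a test.

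Including the 5 genes of the rule, 94 genes stood at least 2-fold higher in interferon-stimulated than in other tumour cells of both libraries, which was 0.806% of the 11657 genes with at least 100 UMIs over the tumour barcodes of each library. With each library counted by itself, these 94 included, 115 genes did so in SLC7A11-Ab (0.987%) and 189 in control (1.62%). In the opposite direction 0 genes (0% of those tested) were 2-fold lower in both libraries, with 22 lower in SLC7A11-Ab and 67 in control. Outside the rule there were 89 such genes, of which 47 were in the lists of other interferon-stimulated, interferon gamma class, MHC class I, sensing or signalling genes. Since the rule chose the cells by correlated genes, these shares are a description of the cells' content.

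Other interferon-stimulated genes went along with the rule almost as a block. Of 57 listed genes 54 could be assessed. At least 2-fold higher in interferon-stimulated cells were 42 in SLC7A11-Ab and 50 in control, and 0 were 2-fold lower in either. The list's median log2 ratio was 1.25 in SLC7A11-Ab and 2.38 in control, where the medians over all genes were -0.03 and -0.05. Mx1 and Mx2, dynamin-like GTPases that trap viral particles, were among the highest, Mx1 at 36.3 CPM in SLC7A11-Ab and 43.2 CPM in control interferon-stimulated cells against 3.38 and 1.29 CPM in the others. Cmpk2, a mitochondrial nucleotide kinase whose gene neighbours Rsad2, stood at 43.9 and 25.1 CPM against 6.19 and 0.99 CPM. Ifi44, an interferon-induced cytoplasmic protein, stood at 313 and 266 CPM against 80.1 and 17.8 CPM. The exceptions at the bottom of the list were Epsti1 (log2 ratios 0.15 in SLC7A11-Ab and 0.23 in control) and Ifi27 (-0.26 and 0.13), which hardly followed the score.

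The 20 genes with the largest ratios, ranked by the library with the smaller one, ran from Ifit3b (log2 ratio 3.58 in SLC7A11-Ab and 5.50 in control) to Ifi208 (1.70 and 3.52). After Mx1, Cmpk2, Mx2 and Oasl1 they held Trim30c, Ifi44l, Ifit2, Ifi209, Ifi205, Ifi44, Slfn2 and Spats2l, with log2 ratios of 1.73 to 3.20 in SLC7A11-Ab and 2.31 to 3.90 in control. They also held the death-receptor ligand Tnfsf10 (TRAIL), the chemokines Cxcl10 and Cxcl11, and the RNA sensors Ifih1, Tlr3 and Dhx58, which are described with their groups. Ifit3b is a near copy of Ifit3, and Trim30c, Ifi205, Ifi208 and Ifi209 belong to tight gene families, so counts may be split between copies and these genes are uncertain. Of the 10 lowest, Krt8, a simple-epithelial keratin, had log2 ratios of -2.02 and -0.94, from 9 UMIs in each library's interferon-stimulated cells. The endothelin gene Edn1 (-0.60 and -0.85), the Notch regulator Nrarp (-1.08 and -0.85) and the checkpoint ligand gene Pdcd1lg2 (-0.59 and -0.95) were also there, each on at most 66 UMIs in the interferon-stimulated cells of a library.

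**Figure D2:**
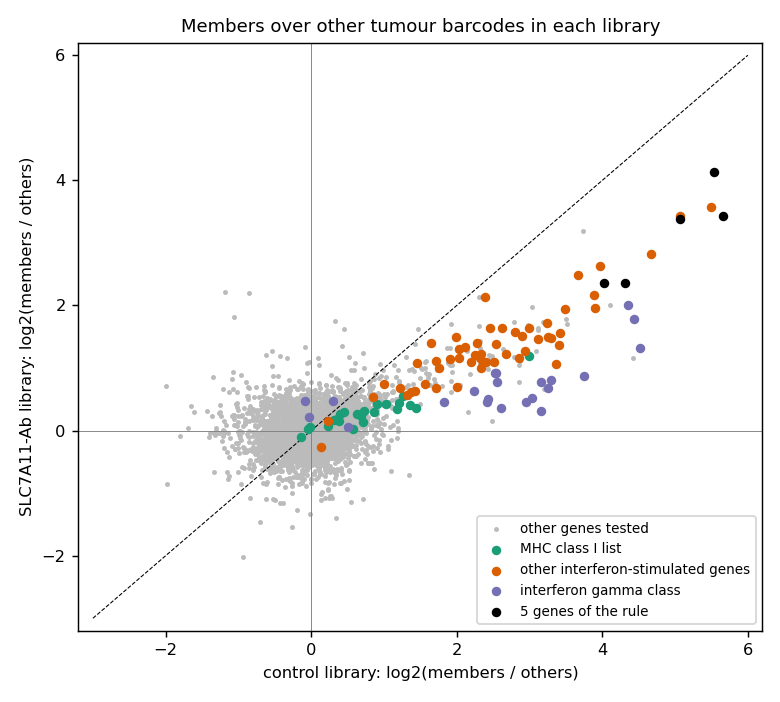
Log2 ratio of interferon-stimulated (members) to other tumour barcodes for each gene assessed, SLC7A11-Ab on the vertical and control on the horizontal axis, with gene lists in colour and equality dashed. The interferon genes lie far to the upper right and below the dashed line, with list medians of 1.25 in SLC7A11-Ab and 2.38 in control, while the interferon gamma class lies close to the horizontal axis (0.57 and 2.58).

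Summed over the list, the other interferon-stimulated genes stood at 10452 CPM in SLC7A11-Ab and 10635 CPM in control interferon-stimulated cells, and at 5351 and 2829 CPM in the other tumour cells. SLC7A11-Ab over control, the list's median log2 ratio was -0.09 in the interferon-stimulated cells, with 1 of 55 genes (Slfn5) at least 2-fold higher (9.69% over all genes), and 1.07 in the other tumour cells, with 29 of 55 higher (9.42% over all genes). The value of -0.09 became 0.081 under median-of-ratios scaling and 0.37 with the 10% taken within each library, so no direction is read from it. Over all genes these medians were -0.14 and -0.18.

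Viral RNA sensors were high in interferon-stimulated cells of both libraries, while the adaptors below them were at the level of the other cells. Ifih1 (MDA5), a sensor of long double-stranded RNA, stood at 160 CPM in SLC7A11-Ab and 170 CPM in control interferon-stimulated cells, against 41.7 and 15.2 CPM. Dhx58 (LGP2), its helper, stood at 61.5 and 89.1 CPM against 18.6 and 9.44 CPM, and Ddx58 (RIG-I) at 79.4 and 93.1 CPM against 35.7 and 18.7 CPM. Zbp1, a sensor of Z-form nucleic acids that can start necroptosis, stood at 441 and 289 CPM against 212 and 28.2 CPM. Of 19 sensing genes assessed, 6 in SLC7A11-Ab and 8 in control were at least 2-fold higher, where 0.987% and 1.62% of all genes were. The relay proteins Mavs, Tbk1, Irf3, Ticam1 and Sting1 had log2 ratios from -0.14 to 0.12 in the 2 libraries.

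In the signalling chain, Irf7 and Stat2 differed with the score in both libraries, while the receptors Ifnar1 and Ifngr1 differed by less than 2-fold. Of 15 receptor, JAK, STAT and IRF genes assessed, 2 in SLC7A11-Ab and 4 in control were at least 2-fold higher. Over all genes 0.987% and 1.62% were, and the list's medians were 0.15 and 0.12 on the log2 scale. Irf7, the amplifier of type I interferon production, stood at 220 CPM in SLC7A11-Ab and 274.5 CPM in control interferon-stimulated cells and at 94.1 and 43.1 CPM in the others. Stat2, a subunit of the ISRE-binding complex, stood at 133 and 98.1 CPM against 59.3 and 13.6 CPM. Its log2 ratio of SLC7A11-Ab to control was 0.44 (interval 0.31 to 0.57) in interferon-stimulated cells and 2.13 (interval 2.04 to 2.22) in the other tumour cells. Ifnar1, a type I receptor chain, stood at 16.1 CPM and 10.1 CPM against 16.6 and 13.2 CPM, and Ifngr1, an interferon gamma receptor chain, at 40.6 and 43.1 CPM against 39.6 and 45.7 CPM. Ifnar2 and Ifngr2 were at 27.7 and 34.4 CPM in SLC7A11-Ab and 5.14 and 7.06 CPM in control interferon-stimulated cells, with log2 ratios of SLC7A11-Ab to control of 2.41 and 2.27, and of 2.18 and 1.78 in the other tumour cells. The library difference of both chains was thus present in either kind of cell. Irf7 and Stat2 were at least 2-fold higher in interferon-stimulated cells of both libraries. Irf9, the DNA-binding subunit beside STAT2, stood at 87.5 and 78.1 CPM against 65.0 and 27.7 CPM and passed that fold in control alone.

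Of the 4 ISG15 conjugation enzymes, none of them in the rule, Herc6 and Trim25 were at least 2-fold higher with the score in SLC7A11-Ab (log2 ratios 1.49 and 1.07), where Ube2l6 and Uba7 stood at 0.70 and 0.58. In control all 4 passed that fold (3.25, 1.45, 2.00 and 1.32). Over all genes 0.987% did so in SLC7A11-Ab and 1.62% in control. Herc6, the mouse ligase for ISG15, stood at 98.9 CPM in SLC7A11-Ab and 111 CPM in control interferon-stimulated cells against 35.2 and 11.7 CPM. Of 12 listed brakes of the pathway, 3 in each library, Usp18 among them, were at least 2-fold higher with the score, beside 0.987% and 1.62% of all genes. The rest did not differ by 2-fold. Socs1, an inhibitor of JAK kinases that interferon gamma induces strongly, stood at 12.3 and 2.35 CPM against 8.86 and 1.97 CPM, so it differed between libraries and little with the score. The phosphatase gene Ptpn2 stood at 71.1 and 67.8 CPM against 68.1 and 72.5 CPM.

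Interferon gamma class genes set the libraries apart within the interferon-stimulated cells themselves. Summed over 30 genes they stood at 4561 CPM in SLC7A11-Ab and 1822 CPM in control interferon-stimulated cells, and at 2615 and 256 CPM in the other tumour cells. SLC7A11-Ab over control, 23 of 29 genes assessed were at least 2-fold higher in interferon-stimulated cells (median log2 ratio 1.58) and 28 of 29 in the other tumour cells (median 3.90). The background was high: of 10638 genes with at least 50 UMIs over the interferon-stimulated cells of both libraries, 1031 (9.69%) were 2-fold higher in SLC7A11-Ab and 186 (1.75%) lower, and in the other tumour cells 1002 (9.42%) were higher. The direction of this list's median held under each alternative that was run, with values of 1.21 to 1.84. With the score, 3 of 22 genes assessed were at least 2-fold higher in SLC7A11-Ab (Cxcl10, Cxcl11 and Gbp5, median 0.57) and 18 of 22 in control (median 2.58), beside 0.987% and 1.62% of all genes.

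Gbp2, a guanylate-binding protein that attacks vacuoles of intracellular pathogens, stood at 272 CPM in SLC7A11-Ab and 96.0 CPM in control interferon-stimulated cells, and at 198 and 12.4 CPM in the others. In single barcodes its medians were 229 and 34.1 CPM in interferon-stimulated cells, against 118 and 0 CPM in other tumour cells. Other tumour cells of the SLC7A11-Ab library thus had more Gbp2 than interferon-stimulated cells of the control library, and the groups of barcodes overlapped. Iigp1, an immunity-related GTPase, stood at 459 and 107 CPM against 371 and 11.9 CPM, with the same order. Irf1, a transcription factor that interferon gamma induces, stood at 252 and 43.2 CPM against 242 and 30.6 CPM, so that it followed the library and hardly the score. In the other direction, the genes whose library ratio was smallest in interferon-stimulated relative to other cells were Gbp5 (log2 ratio of SLC7A11-Ab to control 1.03, against 4.23 in other tumour cells), Gbp6 (0.92 against 4.06), Gbp3 (0.65 against 3.52), Iigp1 (2.10 against 4.96) and Gbp10 (1.75 against 4.46). Members of the GBP and IRG families resemble each other closely, and counts of single members are uncertain.

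**Figure D3:**
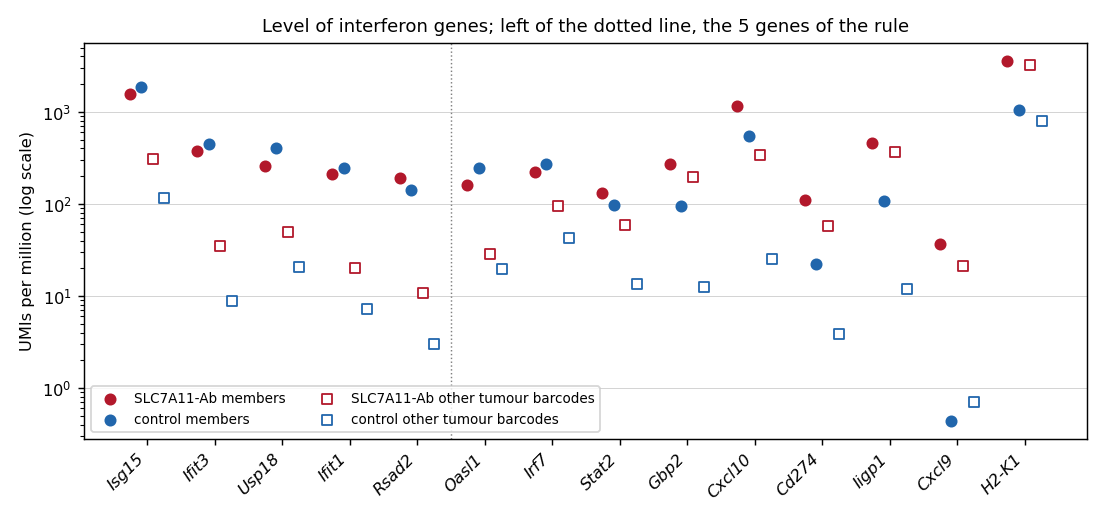
Level (CPM, log scale) of 14 genes in interferon-stimulated (members, filled circles) and other tumour barcodes (open squares), SLC7A11-Ab in red and control in blue. The rule genes chose the cells. Of the other genes shown, Iigp1 (459 and 107), Cd274 (109.5 and 22.2) and H2-K1 (3596 and 1040) are higher in SLC7A11-Ab than in control interferon-stimulated cells, and Irf7 (220 and 274.5) is lower.

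Antigen presentation genes had larger median ratios between the libraries than with the score, though for class I genes the margin could be small. H2-K1, a classical MHC class I heavy chain, stood at 3596 CPM in SLC7A11-Ab and 1040 CPM in control interferon-stimulated cells, and at 3252 and 798 CPM in the others. Tap1, the peptide transporter subunit, stood at 169 and 39.4 CPM against 128 and 15.4 CPM, and Psmb8, an immunoproteasome subunit, at 309.5 and 53.2 CPM against 263 and 33.1 CPM. Of 24 class I genes, 10 were at least 2-fold higher in SLC7A11-Ab than in control interferon-stimulated cells (median log2 ratio 0.78, with 9.69% of all genes higher) and 17 among other tumour cells (median 1.55, with 9.42% of all genes higher). With the score, the class I medians were 0.26 in SLC7A11-Ab and 0.69 in control, the latter close to the library median of 0.78. With the score, 1 gene in SLC7A11-Ab (H2-T24) and 7 in control were 2-fold higher, beside 0.987% and 1.62% of all genes. Among H2-K1, Tap1, Psmb8 and B2m, the light chain B2m was nearest to even, at 4560 and 3908 CPM against 4017 and 3059 CPM. The MHC class II genes stood far apart, 7 of 7 at least 2-fold higher in SLC7A11-Ab in either kind of cell. Over all genes 9.69% were higher in interferon-stimulated and 9.42% in other tumour cells. H2-Aa stood at 227 and 6.47 CPM in interferon-stimulated cells and 191 and 9.43 CPM in others. Macrophages and other presenting cells also make these genes. The summed macrophage markers were 435 CPM in SLC7A11-Ab and 124 CPM in control interferon-stimulated cells, and their part in the class II values was not tested.

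Of 16 chemokine and cytokine genes assessed, 5 in each library were at least 2-fold higher with the score (0.987% and 1.62% over all genes in SLC7A11-Ab and control), and 1, Ccl8, was 2-fold lower in control (log2 ratio -1.25). Cxcl11, Cxcl10, Ccl5 and Il15 passed in both libraries, with Cxcl2 in SLC7A11-Ab and Ccl2 in control as the fifth. Cxcl10, a ligand of CXCR3, stood at 1164 CPM in SLC7A11-Ab and 549 CPM in control interferon-stimulated cells, and at 339 and 25.3 CPM in the others. It was uneven between barcodes, with medians of 259 and 0 CPM and 90th percentiles of 3241 and 1896 CPM in interferon-stimulated cells. Cxcl11, another CXCR3 ligand, stood at 98.6 and 30.4 CPM against 24.6 and 1.5 CPM. Cxcl9, the third such ligand, had 430 UMIs in SLC7A11-Ab and 3 UMIs in control interferon-stimulated cells (37.0 and 0.44 CPM), a log2 ratio of 6.17 with an interval of 4.84 to 8.68, and 21.0 and 0.70 CPM in the others. Ccl5, a chemokine for T cells, ran the other way among interferon-stimulated cells, at 45.3 CPM in SLC7A11-Ab and 87.2 CPM in control (log2 ratio -0.94, interval -1.12 to -0.77), against 18.8 and 10.2 CPM in the others. Il15, a survival factor for NK and CD8 T cells, stood at 79.5 and 83.2 CPM against 33.1 and 16.5 CPM. The neutrophil chemokine Cxcl1 did not go with the score, at 970 and 541 CPM against 958 and 560 CPM.

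Among checkpoint ligands, Cd274 (PD-L1) stood at 109.5 CPM in SLC7A11-Ab and 22.2 CPM in control interferon-stimulated cells, and at 57.9 and 3.87 CPM in the other tumour cells. It was higher with the score in both libraries (log2 ratios 0.92 and 2.52) and higher in SLC7A11-Ab in both kinds of cell (2.30 and 3.90). Lgals9, a galectin that binds TIM-3, stood at 80.1 and 116 CPM against 39.9 and 34.2 CPM. Of 13 genes of this list assessed, Lgals9 was at least 2-fold higher with the score in both libraries and Cd274 in control alone. Over all genes 0.987% in SLC7A11-Ab and 1.62% in control were. Of 18 cell death genes, 3 passed that fold in each library (0.987% of all genes in SLC7A11-Ab and 1.62% in control), namely Tnfsf10, Xaf1 and Zbp1. Tnfsf10 stood at 12.7 and 14.3 CPM against 3.15 and 0.83 CPM, and Xaf1, an antagonist of the apoptosis inhibitor XIAP, at 275 and 246 CPM against 114 and 32.1 CPM. Mlkl, the necroptosis effector, stayed nearer to even, at 90.0 and 87.5 CPM against 67.1 and 54.4 CPM.

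The largest differences between the libraries in interferon-stimulated cells were mostly shared by the other tumour cells. Of the 1031 genes 2-fold higher in SLC7A11-Ab, 846 were 2-fold higher in the other tumour cells as well. Junb, an AP-1 factor outside the interferon lists, stood at 1154 CPM in SLC7A11-Ab and 30.6 CPM in control interferon-stimulated cells and at 1152 and 28.7 CPM in the others, and Cox5a, a respiratory chain subunit, stood at 566 and 12.2 CPM against 593 and 12.4 CPM. Such differences were present at low score as well. The gene tables of the libraries differed, with 28526 identifiers in both, 2768 in that of SLC7A11-Ab alone and 3106 in that of control alone, and whether both libraries had the same chemistry and reference annotation is not given in the sources used here. A difference of that kind and one of treatment cannot be told apart in any library ratio given here. The 10 highest ratios by the naming rule included 6 replication-type histone genes (H3c3, H2ac8, H3c6, H2ac20, H2ac10 and H2ac24, log2 ratios 5.97 to 7.55, or for H3c6, with 0 control UMIs, at least 17.8-fold against a floor of 3 UMIs), whose copies are near-identical and whose transcripts mostly lack poly(A) tails. In that order these 6 had 2, 1, 0, 3, 1 and 1 UMIs in control interferon-stimulated cells, so the sizes of their ratios are uncertain. The remaining 4 were Ubd, a ubiquitin-like gene that interferon gamma and TNF induce (log2 ratio 6.44, 518 and 3 UMIs), Cxcl9, H2-DMb1 (5.58, 612 and 7 UMIs) and Ms4a4d, with 139 UMIs in SLC7A11-Ab and 0 in control, at least 27.1-fold higher against the same floor.

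Lowest in SLC7A11-Ab interferon-stimulated cells were Pmepa1, a TGF-beta target (log2 ratio -3.05), Prss12 (-2.69), Csn3 (-2.45), Sapcd1 (-2.22) and Tafa1 (-2.11), followed by Arap3, Ap3b2, Rerg, Fxyd1 and Acsbg1 (-1.96 to -1.74). In the other tumour cells these 10 genes had log2 ratios of -2.64 to -1.39, so they too were lower across the library. Where the ratio was larger in interferon-stimulated than in other cells, the 5 leading genes were Mmp12 (3.27 against 0.40), Hyi (5.54 against 3.21), Ccl6 (2.14 against 0.13), Arg1 (2.98 against 1.13) and Cxcl2 (2.52 against 0.70). In that order they had only 14, 1, 40, 12 and 78 UMIs in control interferon-stimulated cells, and the Hyi ratio had an interval of 3.62 to 11.4. Mmp12, Ccl6, Arg1 and Cxcl2 are expressed by myeloid cells, and the summed macrophage markers ran the same way (435 CPM in SLC7A11-Ab and 124 CPM in control interferon-stimulated cells, 327 and 184 CPM in the others). None of the 5 kept its direction under every alternative that was run. Without barcodes with host markers, the ratio in interferon-stimulated cells minus that in other cells was -1.20 for Mmp12, -0.16 for Arg1 and -0.29 for Cxcl2. It was -0.089 for Hyi at 3000 UMIs per barcode and -0.54 for Ccl6 with summed log values as the score.

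**Figure D4:**
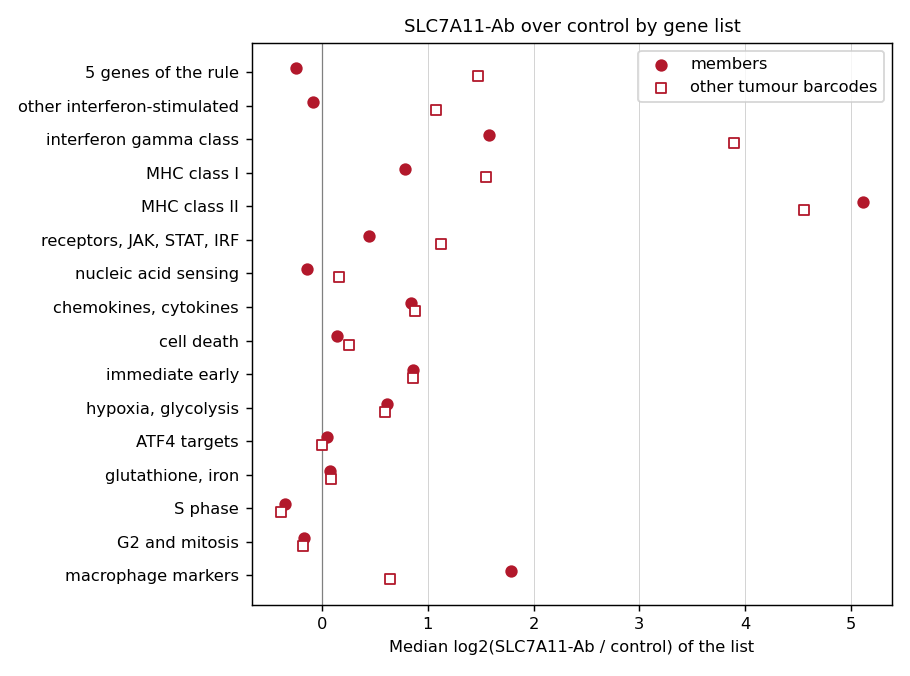
Median log2 ratio of SLC7A11-Ab to control (horizontal axis) for each gene list (rows), in interferon-stimulated cells (members, filled) and other tumour cells (open). The values of the rule genes are set by the choice of cells. Other interferon-stimulated genes are at -0.09 and 1.07 (the first is 0.37 with the 10% taken within each library), the interferon gamma class at 1.58 and 3.90, hypoxia genes at 0.61 and 0.60, and immediate early genes at 0.86 and 0.86.

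Levels differed step by step along the score, with no jump at the threshold. The other tumour cells were split into those at a score of 0 and 3 bins of equal number, and the interferon-stimulated cells at their median. The other interferon-stimulated genes stood at 3313, 3596, 4687, 6580, 9187 and 12295 CPM along these bins in SLC7A11-Ab, and at 2169, 2434, 3176, 5140, 7973 and 13297 CPM in control. In the topmost bin control was the higher one, and below it SLC7A11-Ab. The interferon gamma class ran from 1231 to 5595 CPM in SLC7A11-Ab and from 187 to 2652 CPM in control, so that control cells of the topmost bin (2652 CPM) reached between the middle (2376 CPM) and the high bin (3280 CPM) of SLC7A11-Ab. Cells of the SLC7A11-Ab library with no UMI of any rule gene still had 101 CPM of Gbp2, against 8.08 CPM in control cells of the same bin, at median depths of 10704 and 9927.5 UMIs. MHC class I genes ran from 14522 to 19447 CPM and from 7128 to 10552 CPM, without meeting.

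**Figure D5:**
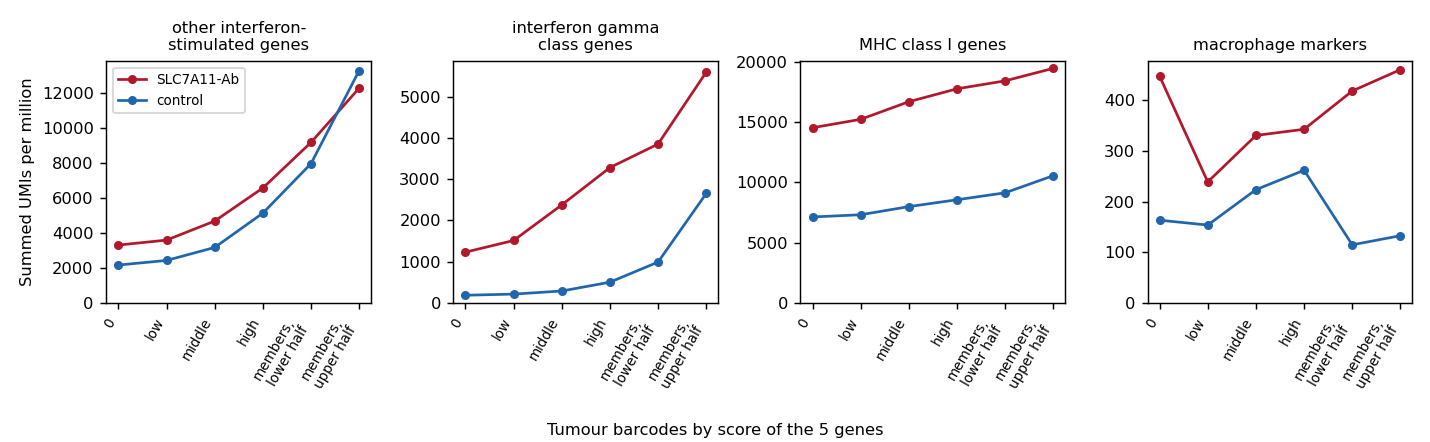
Summed CPM of 4 gene lists (vertical axes, from 0) in 6 bins of tumour barcodes ordered by score (horizontal axis), SLC7A11-Ab in red and control in blue. The other interferon-stimulated genes reach 12295 in SLC7A11-Ab and 13297 in control in the topmost bin, while interferon gamma class and MHC class I genes keep a gap between the libraries.

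Programs outside the interferon response were nearly even between interferon-stimulated and other tumour cells. The medians of S phase genes were -0.09 in SLC7A11-Ab and -0.16 in control on the log2 scale, those of G2 and mitosis genes -0.06 and -0.06, hypoxia and glycolysis genes 0.03 and 0.08, NF-kB targets 0.05 and 0.09, and ATF4 stress genes 0.05 and -0.15. Of the S phase, G2 and mitosis, hypoxia and ATF4 genes assessed, 0 differed by 2-fold in either library. This count was near the share over all genes, of which 0.987% in SLC7A11-Ab and 1.62% in control were 2-fold higher. The proliferation marker Mki67 stood at 48.8 CPM in SLC7A11-Ab and 62.0 CPM in control interferon-stimulated cells, and at 52.9 and 68.2 CPM in the others. Slc7a11, which encodes the antibody's target, stood at 20.3 and 14.0 CPM against 21.1 and 18.1 CPM, and its intervals for interferon-stimulated over other cells were -0.25 to 0.15 in SLC7A11-Ab and -0.69 to -0.07 in control (log2). Of 17 glutathione, iron and ferroptosis genes assessed, 0 differed by 2-fold with the score, again near the 0.987% and 1.62% over all genes.

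Transcripts of the interferons themselves were rare. Ifnb1 had 33 UMIs in 9 of the 611 SLC7A11-Ab interferon-stimulated barcodes and 1 UMI in 1 of the 520 control ones. In the other tumour cells it had 2 UMIs in 2 of 3560 SLC7A11-Ab barcodes and 0 UMIs among the 6618 control barcodes. The UMIs were concentrated, with 4 SLC7A11-Ab barcodes holding 8, 7, 5 and 5 of them, at score ranks 13, 428, 2 and 119 of all tumour barcodes. These 4 barcodes carried 129, 186, 60 and 161 UMIs of Cxcl10 and 0 to 3 UMIs of the macrophage gene Lyz2. Ifna4 had 1 UMI in SLC7A11-Ab and 0 in control interferon-stimulated cells. Ifng, made by T and NK cells, had 14 UMIs in 13 SLC7A11-Ab and 0 UMIs in control interferon-stimulated barcodes, and 66 and 7 UMIs in the other tumour cells, with a highest count of 2 UMIs in a single interferon-stimulated barcode.

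Markers of host cells differed between the libraries in directions that varied by list. The 12 macrophage markers, all of them seen in each set, summed to 435 CPM in SLC7A11-Ab and 124 CPM in control interferon-stimulated cells, and to 327 and 184 CPM in the other tumour cells. Lyz2 stood at 142 and 53.8 CPM against 107 and 71.8 CPM, and C1qa at 63.1 and 18.2 CPM against 48.3 and 32.7 CPM. In single barcodes the macrophage sum was even between the kinds of cell, with medians of 222 and 74.5 CPM in interferon-stimulated and 227 and 75.5 CPM in other cells, so the higher sum of the SLC7A11-Ab interferon-stimulated cells did not show in the typical barcode. The 10 T cell markers summed to 17.9 and 2.21 CPM against 18.8 and 3.63 CPM, the 8 neutrophil markers to 40.5 and 11.3 CPM against 15.6 and 20.3 CPM, the 8 NK cell markers to 22.4 and 1.91 CPM against 21.5 and 3.62 CPM, and the 4 Y-linked genes to 3.19 and 0.59 CPM against 2.18 and 1.00 CPM. Higher in control interferon-stimulated cells were the 10 fibroblast markers, at 1166 and 1497 CPM against 1109 and 1305 CPM, and the 8 endothelial markers, at 11.9 and 18.2 CPM against 14.6 and 16.7 CPM. The 8 plasmacytoid dendritic cell markers summed to 3612 and 3444 CPM against 2315 and 1240 CPM. Of that sum Bst2, itself induced by interferon, made up 3408 and 3161 CPM and Tcf4 198 and 274 CPM in interferon-stimulated cells, while the defining marker Siglech stood at 0.69 and 0.15 CPM. Macrophage barcodes themselves were compared by their C1q transcripts. Barcodes with Ptprc, at least 20 UMIs of C1q genes and no Hmga2 numbered 503 in SLC7A11-Ab and 363 in control, and the comparison was made for Cxcl9, which is no part of the rule. Interferon-stimulated cells held 25.5 UMIs of Cxcl9 per 100 C1q UMIs in SLC7A11-Ab and other tumour cells held 19.0, against 9.05 in the macrophage barcodes of that library. In control the ratio was 1.35 in interferon-stimulated cells, on 3 Cxcl9 UMIs, and 1.18 in other tumour cells, against 0.26 in macrophage barcodes. The macrophage gene Lyz2 was also higher by this measure, so a higher ratio is not particular to Cxcl9. In SLC7A11-Ab it stood at 97.6 in interferon-stimulated and 96.8 in other tumour cells, against 46.7 in macrophage barcodes. In control these values were 164.9 and 121.1, against 90.2. The macrophage barcodes were chosen by C1q, which is also the divisor, so their low ratio is partly set by that choice. Host cells low in C1q were left out, and the source of the Cxcl9 UMIs was not tested.

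The main contrasts were close in size without the barcodes that carried 2 or more UMIs of host genes, a filter that fell unequally on the libraries. Leaving out every tumour barcode with at least 2 UMIs of 16 host genes kept 158 SLC7A11-Ab and 469 control interferon-stimulated cells, chosen anew at the top 10%, and lowered their macrophage sum to 110 and 54.9 CPM. The other tumour cells then numbered 683 in SLC7A11-Ab and 4960 in control, compared with 3560 and 6618 before. The unequal depths given above are those before this filter, and a fixed UMI count is met more easily in deeper barcodes. Host transcripts were thus reduced and not removed, and their sum stayed higher in SLC7A11-Ab. The other interferon-stimulated genes then stood at 10253 and 10498 CPM against 4970 and 2739 CPM in other tumour cells, and the interferon gamma class at 4735 and 1698 CPM against 2324 and 238 CPM. Gbp2 stood at 299 and 91.0 CPM, Cd274 at 107 and 20.2 CPM and Cxcl9 at 32.5 and 0.36 CPM in the interferon-stimulated cells of SLC7A11-Ab and control. Mmp12, by contrast, then stood at 1.83 and 1.64 CPM in interferon-stimulated cells and 4.44 and 1.64 CPM in the others, so its larger ratio in interferon-stimulated cells did not hold, nor did those of Arg1 and Cxcl2.

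The choice of the 5 genes was also varied. With cells chosen by the list of other interferon-stimulated genes in place of the 5, 68.0% of the cells were the same, and the shares were 16.7% of SLC7A11-Ab and 6.09% of control tumour barcodes. Isg15, then not used in the choice, stood at 1327 CPM in SLC7A11-Ab and 1990 CPM in control among the chosen cells, against 331 and 146 CPM in the rest. Ifit3 stood at 306 and 496 CPM against 42.3 and 15.0 CPM. With the 10% taken at a fixed 3000 UMIs per barcode, 82.4% of the cells were the same and the log2 ratio of the shares was 0.81.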

How the data were processed

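The data were 1 matrix of UMI counts for each group. The authors made these counts with Cell Ranger 7.2.0 on build mm10 from 10x Genomics 3' libraries, per the labels' protocols and the submitters' processing notes, which also name Seurat. The files hold whole-number counts as deposited, and a gene listed in 1 table only was taken as 0 in the other. The tables shared 28526 gene identifiers. The tumour barcodes and the top 10% by score were chosen as the report states, and no doublets or free RNA were removed, except under an alternative that used Scrublet in scanpy 1.11.5. UMIs were summed per library and kind of cell and divided by the set's total to give CPM. Log2 ratios of these sums used a prior count of 0.5. Intervals are exact Clopper-Pearson for shares and conditional binomial for ratios, at 95%, and cover counting error only. Pooled UMI totals of the interferon-stimulated cells were 11607738 in SLC7A11-Ab and 6802528 in control.

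Genes were assessed with at least 100 UMIs over the tumour barcodes of each library, or, for SLC7A11-Ab over control, with at least 50 UMIs over the interferon-stimulated cells of both. Named genes were the 20 highest and 10 lowest ratios of interferon-stimulated to other cells, ranked by the library nearer 0, the 10 highest and 10 lowest ratios of SLC7A11-Ab to control among genes detected in 10% of cells, and the 5 highest and 5 lowest differences between the latter ratio in the 2 kinds of cell. Gene models, sex-linked, immune receptor, haemoglobin, ribosomal protein and mitochondrial genes were left out. Other genes are examples of gene lists, picked after their values were seen. The members and the lists were chosen with earlier results of these data known. Of 487 listed symbols 17 were not found in the tables and 4 were matched by an older name. Interval and ratio code was tested on simulated counts. Software was Python 3.11.15 with pandas 2.3.3, matplotlib 3.10.9, scipy 1.17.1 and numpy 2.4.6. Results on some genes are not reported here.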

Additional observations from a re-analysis of the deposited data

How the results depend on the processing

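No paired analysis was possible because each group had 1 library, and for the same reason no replicate could be left out. Across 15 alternatives, 13 main values and 60 single-gene values were recomputed. Of the main values 114 stayed within their spread or within 1.5 times a count, 50 moved and 3 changed sign, and of the single-gene values 712 stayed, 105 moved and 13 changed sign. The cause of a change was not tested unless stated.

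The share of interferon-stimulated cells in SLC7A11-Ab and control was 6.43% and 4.16% for the top 5% (log2 ratio 0.63), 33.7% and 11.99% for the top 20% (1.49), 16.6% and 6.16% with summed log values (1.43), 16.7% and 6.09% with the other interferon genes as score (1.45), and 18.8% and 8.64% without barcodes with host markers. Taken within each library it was 10.0% in each by construction (9.9976 and 10.0028, log2 ratio -0.00075). At 3000 UMIs per barcode the log2 ratio was 0.81.

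Genes 2-fold higher in SLC7A11-Ab interferon-stimulated cells numbered 580 at 3000 UMIs, 3286 with no count minimum and 617 with 5 times the minimum. Those 2-fold lower numbered 283 without host-marker barcodes, 3262 with no minimum, 59 with 5 times the minimum and 92 with median-of-ratios scaling. With no minimum, 2879 genes were 2-fold higher and 153 lower with the score in both libraries. The count of 0 lower genes became 12 for the top 5%, 2 without doublet-scored barcodes, 2 against other cells at or under their median score (chosen after seeing the data), and 1 each for the top 10% within libraries, summed log values, other interferon genes and at least 6000 UMIs.

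The median log2 ratio of other interferon-stimulated genes with the score, 1.25 in SLC7A11-Ab, was 1.35 within libraries, 1.44 for the top 5%, 1.09 for the top 20%, 1.15 with log values and 2.08 against cells under the median. In control it was 2.64, 2.16, 2.55 and 2.77 for the top 5%, the top 20%, no doublets and cells under the median. The interferon gamma class was 0.83, 0.94, 0.75 and 1.59 in SLC7A11-Ab for the top 5%, other interferon genes, no host markers and cells under the median. In control it was 2.99, 2.97, 2.95 and 3.09 at 3000 UMIs, for the top 5%, at 5 times the minimum and against cells under the median. SLC7A11-Ab over control among interferon-stimulated cells, other interferon-stimulated genes changed sign from -0.09 to 0.37 within libraries and 0.081 with median-of-ratios scaling.

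The single-gene sign changes were all in the difference of library ratios between the kinds of cell. For Mmp12 it was -0.16 at 3000 UMIs, -1.02 for the top 20%, -0.48 with log values and -1.20 without host markers. For Arg1 it was -0.70 at 3000 UMIs, -0.32 within libraries, -0.95 for the top 20% and -0.16 without host markers. For Ccl6 it was -0.46 for the top 20%, -0.54 with log values and -0.25 with other interferon genes, for Hyi -0.089 at 3000 UMIs, and for Cxcl2 -0.29 without host markers.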

Other observations

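Interferon transcripts were also counted outside the tumour barcodes. Ifnb1 had 47 UMIs in 21 of 7982 such SLC7A11-Ab barcodes and 33 UMIs in 3 of 6772 control barcodes, where a single barcode held 23 of them. Ifng had 1761 UMIs in 601 SLC7A11-Ab barcodes (7.53%) and 151 UMIs in 78 control barcodes (1.15%). These barcodes include immune and stromal cells as well as barcodes that the filters left out, and they were not divided by cell type.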
